A study of Mus musculus with 48 samples.

Results

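Muscle fibre type genes are genes whose protein comes in a slow and a fast version, so that their transcripts serve as markers of the kinds of fibre in a muscle sample. Here they were 10 genes, taken by symbol from the muscle table, which listed 12016 genes, out of 15541 genes listed in any of the 6 tissue tables. They were the adult myosin heavy chains Myh7, Myh2, Myh1 and Myh4, the troponins Tnni1, Tnnt1 and Tnni2, the Z-disc protein gene Actn3 and the calcium pumps Atp2a1 and Atp2a2. Each symbol stood on 1 Ensembl gene, and all 10 were tested in muscle.

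The mice were male, of the C57Bl6 strain and obese from a high fat diet, and each had either Roux-en-Y gastric bypass (RYGB) or a sham operation. Both groups then took an elemental liquid diet for 9 days, were fasted overnight and were killed at 10 am. The labels also mention a return to the high fat diet, and give no age. RNA of gastrocnemius muscle was sequenced in 4 RYGB and 4 sham libraries, and 40 further libraries covered white adipose tissue, liver, duodenum, jejunum and ileum. In mice the gastrocnemius has a pale outer part of fast fibres and a redder deep part, and it lies over the soleus, a slow muscle. The labels name the muscle but not the part that was dissected. The labels number the samples and do not say that each came from another animal, so that p values measure the spread between these libraries.

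Skeletal muscle fibres differ in how fast they contract and in how they make ATP. Slow, type I fibres use the myosin of Myh7 and burn fuel in mitochondria, type IIa fibres (Myh2) are fast and still oxidative, and types IIx (Myh1) and IIb (Myh4) are faster and more glycolytic. Slow fibres also have other troponins, another calcium pump and other myosin light chains than fast fibres, and muscle use, nerve input and hormones can shift the mixture.

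Values were CPM, the reads of a gene scaled to a common library total, rounded by the authors to 0.1. Library totals were not given, so the depth behind each value is unknown and no count interval is given. Levels were tested with limma on log2(CPM + 1) over the 11966 muscle genes whose mean reached 1 CPM. A gene was called when its Benjamini-Hochberg adjusted p value was under 0.05 and its fold change at least 1.5. None of the 11966 genes was called (0%), although 1746 had an unadjusted p value under 0.05 (14.6%). The lowest adjusted p value of any gene was 0.0547. The values of the fibre type genes are therefore given library by library, with the position of the 2 groups and the test beside them.

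The tissue was muscle by its defining genes: all 8 markers on the identity list were present, and the muscle creatine kinase gene Ckm averaged 20010 ± 3031 CPM (SD, n = 4) after RYGB and 21520 ± 1589 CPM (n = 4) after sham surgery. The skeletal actin gene Acta1 averaged 29656 ± 1116 and 30516 ± 3775 CPM. Des, the intermediate filament gene desmin, had the lowest p of the list, at 3781 ± 128 against 2708 ± 90.7 CPM without overlap (log2 fold change 0.48, adjusted p value 0.112). The lane tags in the labels put RYGB 1 and 2 and sham 1 and 2 in lane 2, sham 3 and 4 in lane 3, and RYGB 3 and 4 in lane 4. Outside lane 2, lane and surgery cannot be told apart, so values within lane 2 are given with the results.

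The genes lie apart on the genome except for the fast myosins. On GRCm38, in the GENCODE annotation, Myh2 (chromosome 11, 67171027 to 67197517), Myh1 (67200052 to 67224575) and Myh4 (67238029 to 67260446) follow each other on the plus strand. Myh7 is on the minus strand of chromosome 14, at 54970684 to 54994626. Tnni1 is on chromosome 1 (135779434 to 135810989) and Tnnt1 on chromosome 7 (4504570 to 4516382), and Atp2a2 is on chromosome 5 (122453513 to 122502225). The RefSeq promoter table for GRCm38.p6 held 7 of the 10 genes, and Tnni2, Actn3 and Atp2a2 had no entry. The 250 bases before the RefSeq start of 3 slow genes are printed because their levels followed each other across the libraries. Myh7 and Tnni1 each had 2 RefSeq starts, and the most upstream was used. For Tnni1 and Tnnt1 the bases printed lie inside the GENCODE spans given above. Capitals mark matches, on either strand, to the E-box (CANNTG), the MCAT element (CATTCC) and the TATA box (TATAAA), which did not overlap one another. Myh7 is at chr14:54994627-54994876, minus strand, Tnni1 at chr1:135799171-135799420, plus strand, and Tnnt1 at chr7:4515976-4516225, minus strand.
Myh7: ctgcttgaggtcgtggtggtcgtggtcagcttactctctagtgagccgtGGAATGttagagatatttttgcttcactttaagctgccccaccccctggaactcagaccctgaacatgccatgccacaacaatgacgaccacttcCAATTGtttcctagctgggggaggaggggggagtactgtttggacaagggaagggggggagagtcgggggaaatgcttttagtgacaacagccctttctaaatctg
Tnni1: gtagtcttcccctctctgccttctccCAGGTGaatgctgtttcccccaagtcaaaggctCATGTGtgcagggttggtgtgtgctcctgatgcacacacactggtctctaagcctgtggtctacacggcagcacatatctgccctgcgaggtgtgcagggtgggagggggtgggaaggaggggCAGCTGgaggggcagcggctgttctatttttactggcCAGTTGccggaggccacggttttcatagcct
Tnnt1: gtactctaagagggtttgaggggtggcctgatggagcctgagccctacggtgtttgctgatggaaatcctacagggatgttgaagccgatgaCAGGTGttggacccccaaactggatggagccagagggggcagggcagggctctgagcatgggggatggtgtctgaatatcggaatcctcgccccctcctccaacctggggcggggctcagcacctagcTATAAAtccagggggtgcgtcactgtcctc

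The Myh7 promoter held an MCAT and an E-box match, that of Tnni1 held 4 E-box matches, and that of Tnnt1 held an E-box and a TATA match 30 bases before the start. Of 32851 promoters of this length, 66.2% held an E-box, 12.6% an MCAT and 12.4% a TATA match, so that most promoters hold an E-box match. The promoters of the type IIa and type IIb myosins are shown as the contrast, since their genes lie in the same cluster while Myh2 was higher and Myh4 lower in all RYGB libraries. Here capitals mark a run of 20 bases that the promoters of Myh1, Myh2 and Myh4 share and that only these 3 of the 32851 promoters held (0.00913%). Myh2 is at chr11:67170777-67171026 and Myh4 at chr11:67237562-67237811, both on the plus strand.
Myh2: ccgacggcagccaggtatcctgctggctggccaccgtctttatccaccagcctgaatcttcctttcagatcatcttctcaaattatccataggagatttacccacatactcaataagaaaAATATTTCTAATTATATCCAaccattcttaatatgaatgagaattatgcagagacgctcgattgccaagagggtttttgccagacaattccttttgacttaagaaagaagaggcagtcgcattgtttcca
Myh4: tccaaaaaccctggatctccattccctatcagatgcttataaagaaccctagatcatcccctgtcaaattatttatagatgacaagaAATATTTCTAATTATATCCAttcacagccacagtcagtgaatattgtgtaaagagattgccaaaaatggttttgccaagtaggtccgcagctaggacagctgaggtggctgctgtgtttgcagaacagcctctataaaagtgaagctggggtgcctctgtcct

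The run began 130 bases before the start in Myh2, 163 bases before it in Myh4 and 165 bases before it in Myh1. The Myh2 promoter matched none of the motifs searched. Those of Myh4 and Myh1 each held a match to the MEF2 consensus (2.92% of promoters), which overlapped a TATA match, and Myh4 also held a CArG box (1.47% of promoters). These are matches of letters, not measured binding.

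The slow myosin was the gene with the largest difference. Myh7, the heavy chain of type I fibres, measured 758.1, 667.9, 1784.8 and 248 CPM in RYGB 1 to 4 and 163.1, 43.8, 1.1 and 2.4 CPM in sham 1 to 4. The lowest RYGB library stood above the highest sham library, and sham 3 and 4 were close to 0. The means were 864.7 ± 652 and 52.6 ± 76.3 CPM, a ratio of 16.4. The log2 fold change was 5.51 (SE 1.27, 95% confidence interval 2.67 to 8.35), which ranked 1 of the 11966 genes, with an adjusted p value of 0.116. Within lane 2 the log2 difference was 3.05. Fold changes are on the log2(CPM + 1) scale, which understates the change of low genes: with 0.1 CPM added in place of 1 it was 5.83. Of the 50-base fragments of the Myh7 transcript, 22.2% also occur in Myh6, the cardiac heavy chain, which was listed at 0.3 to 3.9 CPM in the RYGB group and 0.2 to 1.6 CPM in the sham group. Bulk RNA cannot tell more fibres of a type from more RNA per fibre.

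**Figure D1:**
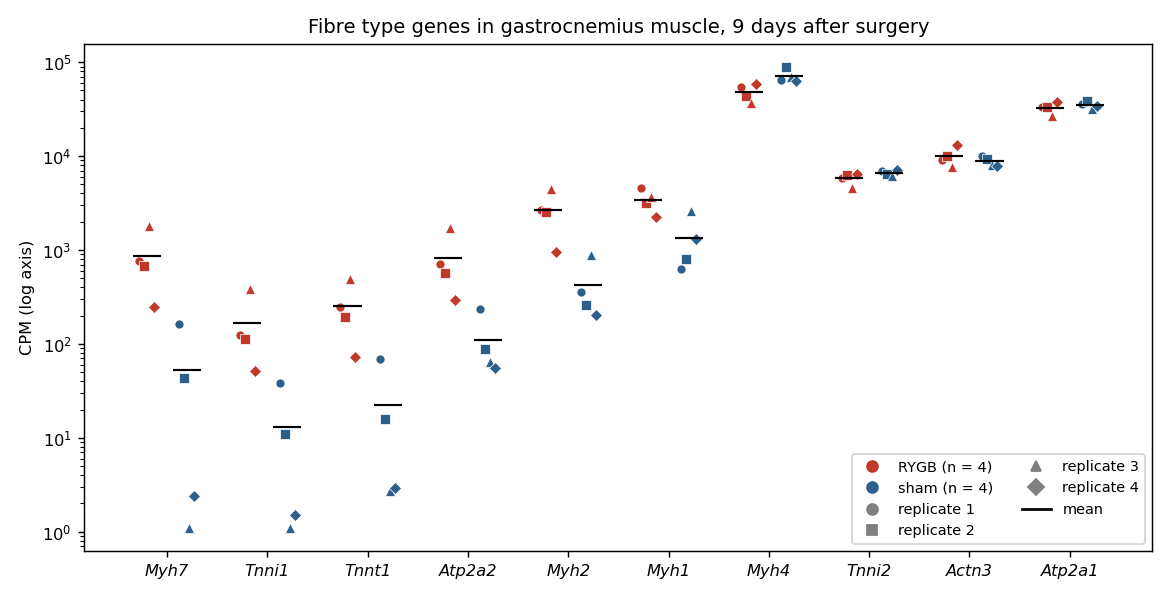
CPM of the 10 fibre type genes (log axis) in each muscle library, with RYGB in red, sham in blue, the marker shape giving the replicate number and black lines the group means (n = 4 each). For Myh7, Tnni1, Tnnt1, Atp2a2 and Myh2 all RYGB libraries lie above all sham libraries, and for Myh4 they lie below.

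The slow troponins followed the slow myosin. Tnni1, the slow form of the inhibitory subunit that blocks contraction at rest, measured 125.7, 113, 382 and 51.1 CPM in RYGB 1 to 4 and 38.7, 11.1, 1.1 and 1.5 CPM in sham 1 to 4. RYGB 3 was again the highest and sham 3 the lowest library, and the groups did not overlap. This gave a log2 fold change of 4.20 (SE 0.92, adjusted p value 0.112), the third largest of all genes tested, and 2.46 within lane 2.

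Tnnt1 encodes the slow subunit that ties troponin to tropomyosin. It measured 246.2, 195, 491.1 and 71.8 CPM in RYGB 1 to 4 and 68.9, 15.9, 2.7 and 2.9 CPM in sham 1 to 4. The lowest RYGB library, RYGB 4, stood only just above the highest sham library, sham 1. Over all libraries the log2 fold change was 4.16 (SE 0.91, adjusted p value 0.112), the fourth largest, and within lane 2 it was 2.68. None of the 50-base fragments of Tnni1 or Tnnt1 occurs in another gene.

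Atp2a2 encodes SERCA2, the pump that returns calcium to the sarcoplasmic reticulum in slow fibres and, in another isoform, in most other cells. Its values were 702.6, 575.4, 1718 and 295.6 CPM in RYGB 1 to 4 and 235, 89.3, 63.9 and 55.6 CPM in sham 1 to 4. The groups did not overlap, and unlike Myh7, Tnni1 and Tnnt1 the pump stayed well above 0 in sham 3 and 4. Its log2 fold change was 2.84 (SE 0.55, adjusted p value 0.111), and 2.13 within lane 2.

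Myh2, the heavy chain of type IIa fibres, measured 2699.6, 2558.7, 4476.2 and 962.1 CPM in RYGB 1 to 4 and 358.5, 261.3, 876.7 and 205.6 CPM in sham 1 to 4. All RYGB libraries lay above all sham libraries, but the gap between RYGB 4 and sham 3 was narrow. The means were 2674 ± 1437 and 425.5 ± 307 CPM, a ratio of 6.28. With a log2 fold change of 2.69 (SE 0.52) and an adjusted p value of 0.108, this was the fibre type gene with the lowest adjusted p value. Within lane 2 the log2 difference was 3.10.

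Myh1, the type IIx heavy chain, measured 4628.4, 3145.9, 3677.9 and 2232.6 CPM in RYGB 1 to 4 and 623.8, 806.2, 2604 and 1302.3 CPM in sham 1 to 4. Here the groups overlapped, because sham 3 lay above RYGB 4. On the log2 scale the difference was 1.53 (SE 0.41, adjusted p value 0.146). Within lane 2 it was 2.43, against 0.64 over the libraries of the other lanes. Myh1 and Myh2 share 19.7% of their 50-base fragments, and 10.6% of those of Myh4 also occur in Myh1. Part of the reads of any of these genes could therefore have been assigned to none or to another of them.

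Myh4, the type IIb heavy chain, was the myosin with by far the most reads. It measured 54892, 44202.6, 36397.2 and 59143.3 CPM in RYGB 1 to 4 and 65311.4, 88860.2, 69138.7 and 63519.5 CPM in sham 1 to 4. Every RYGB library lay below every sham library, with RYGB 3 the lowest and sham 2 the highest. The means were 48659 ± 10312 and 71707 ± 11673 CPM, a ratio of 0.679. With -0.57 (SE 0.27) the log2 fold change had a confidence interval of -1.17 to 0.03 and an adjusted p value of 0.37, and it was -0.63 within lane 2.

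The other 3 fast genes overlapped between the groups. Tnni2, the fast inhibitory troponin, ranged from 4625.3 to 6467.3 CPM in the RYGB group and from 6097.1 to 7181.2 CPM in the sham group (log2 fold change -0.22, SE 0.15, adjusted p value 0.557). Actn3, the alpha-actinin of fast fibres, ranged from 7678.7 to 13294.1 and from 7908.7 to 9981.7 CPM (log2 fold change 0.18, SE 0.19, adjusted p value 0.731). Atp2a1, the fast fibre calcium pump SERCA1, ranged from 26960.1 to 37615.9 and from 31802.8 to 38783.8 CPM (log2 fold change -0.11, SE 0.21, adjusted p value 0.86). In all 3 genes RYGB 3 was the lowest of the RYGB libraries and RYGB 4 the highest. Of the exon length of Atp2a1, 21.9% overlaps Rabep2 on the other strand, and whether counting used the strand of the reads is not given in the sources used here.

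**Figure D2:**
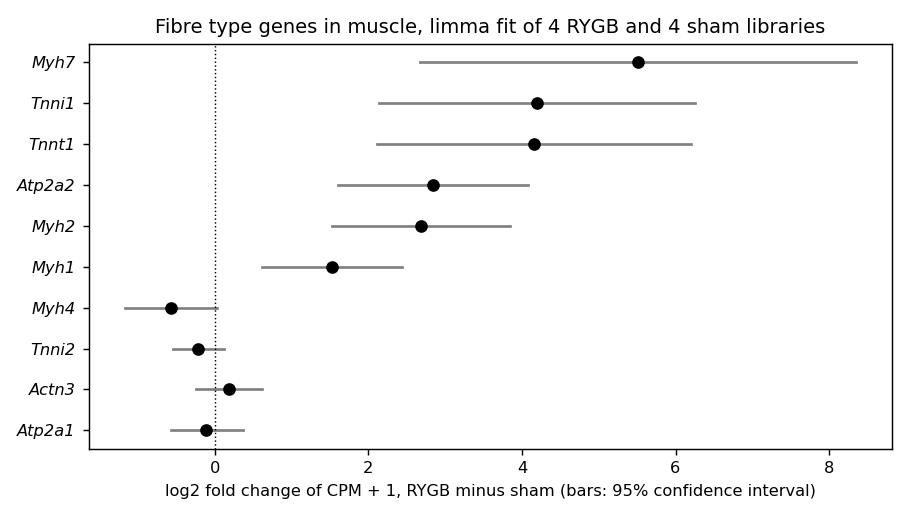
Log2 fold change of CPM + 1 between 4 RYGB and 4 sham muscle libraries for each fibre type gene (points), with 95% confidence intervals from limma (bars). The intervals of the slow genes, Myh2 and Myh1 lie above 0, that of Myh4 reaches from -1.17 to 0.03, and those of the other fast genes span 0, with no adjusted p value under 0.05.

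By position, 5 of the 10 genes had all RYGB libraries above all sham libraries, against 4.77% of all genes tested, and 1 had them all below, against 2.62%. An unadjusted p value under 0.05 with the RYGB group higher was found for 6 of the 10 genes, against 10% of all genes. The 10 genes had a median log2 fold change of 2.11, beside 0.05 over all genes. The genes were chosen with earlier results of these libraries known, so these counts describe them and do not test them.

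Leaving out single libraries moved the calls. Without RYGB 4, the library with the least slow myosin of its group, 210 genes were called (1.75%), among them Atp2a2 (adjusted p value 0.0247), Myh2 (0.0174) and Tnnt1 (0.0442). Without sham 3, 57 genes were called (0.478%), among them Myh2 (0.0403) and Myh1 (0.0411). When both sham libraries of lane 3 were left out, a choice made after the values were seen, no gene was called and 2168 had an unadjusted p value under 0.05. The log2 fold change of Myh7 was then 3.01 (adjusted p value 0.195) and that of Myh2 2.93 (0.18), so their directions held while the size for Myh7 depended on sham 3 and 4.

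Levels between genes were compared per kilobase of the longest protein-coding transcript of each gene in GENCODE. The order of genes with close levels depends on that choice: for Tnni1 the transcript has 1150 bases, and all its exons together 3600. In the sham group the order was Myh4 (11919 ± 1940 CPM per kb), Atp2a1, Tnni2, Actn3, Myh1, Myh2, Atp2a2, Tnnt1, Tnni1 and Myh7 (8.44 ± 12.2 CPM per kb). The neighbours Atp2a2 and Tnnt1 were in that order in 3 of 4 sham libraries, and all other neighbours in 4 of 4. In the RYGB group Atp2a1 (9416 ± 1260 CPM per kb) came before Myh4 (8088 ± 1714 CPM per kb), in 4 of 4 libraries. Myh4 was above Tnni2, and Myh1 above Myh2, in 3 of 4 RYGB libraries. At the low end Myh7 (139 ± 105 CPM per kb) and Tnni1 (146 ± 127 CPM per kb) were not ordered, with Tnni1 above in 2 of 4 libraries. The genes also differed in how much they varied within the sham group. Myh7 differed 148-fold between the highest and lowest sham library, Tnni1 35.2-fold and Tnnt1 25.5-fold, whereas Atp2a1 differed 1.22-fold and Tnni2 1.18-fold.

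The make-up of the myosin heavy chains showed the same in shares. Myh4 made up 98.3, 98.8, 95.3 and 97.7% of the CPM per kb of the 4 adult heavy chains in sham 1 to 4, and 87.3, 87.5, 78.8 and 94.6% in RYGB 1 to 4. Myh1 made up 6.21 ± 1.92% in the RYGB group and 1.84 ± 1.25% in the sham group, and the lowest RYGB share (3.53%) was just under the highest sham share (3.55%). The share of Myh2 was 5.09 ± 3.35% against 0.582 ± 0.423%, with no overlap. Myh7 reached 1.16, 1.28, 3.73 and 0.383% in RYGB 1 to 4, and 0.237, 0.047, 0.00146 and 0.00356% in sham 1 to 4. Without division by length its mean shares were 1.69 ± 1.5% and 0.0748 ± 0.116%. The sham mean rested on sham 1, without which it was 0.018%, and the RYGB mean was 0.974% without RYGB 3. As a share of Myh2 the slow myosin was steady in the RYGB group, at 25.2 to 38.9% per kb, but in the sham group it ran from 0.123% in sham 3 to 44.4% in sham 1.

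**Figure D3:**
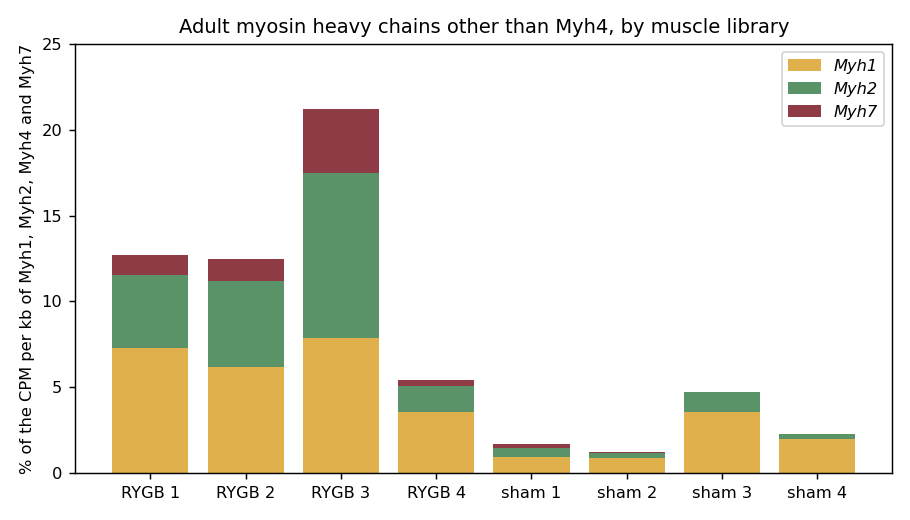
Share of Myh1, Myh2 and Myh7 in the summed CPM per kb of the 4 adult myosin heavy chains in each muscle library, stacked (vertical axis in percent, from 0 to 25), with Myh4 making up the rest to 100%. RYGB 3 has the most of the 3 genes and RYGB 4 the least of the RYGB libraries, and sham 3 comes near RYGB 4 through Myh1.

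The other paired genes gave like proportions. The slow Tnni1 stood at 0.528 to 5.52% of the fast Tnni2 per kb in the RYGB group and at 0.012 to 0.369% in the sham group. The slow pump Atp2a2 stood at 0.609 to 4.94% of the fast Atp2a1 in the RYGB group and at 0.126 to 0.51% in the sham group. In both pairs the groups did not overlap, and RYGB 3 had the highest proportion.

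The slow genes kept nearly the same order of the 8 libraries. On log2(CPM + 1), Myh7 correlated with Tnni1 (Pearson r = 0.993, exact permutation p = 2.48e-05, adjusted over 9 relations 0.000112, Spearman rho = 1, exact permutation p = 4.96e-05, adjusted 0.000223) and with Tnnt1 (r = 0.991, exact permutation p = 2.48e-05, adjusted 0.000112, rho = 1, exact permutation p = 4.96e-05, adjusted 0.000223). For Atp2a2, r was 0.945 (exact permutation p = 0.000174, adjusted 0.000521) and rho 0.976 (exact permutation p = 0.000397, adjusted 0.00119). Because Myh7 itself differed between the groups, the deviations from the group means were also used. On these, r was 0.98 for Tnni1 and 0.975 for Tnnt1 (exact permutation within groups, p = 0.00174 and adjusted 0.00781 for either) and 0.828 for Atp2a2 (exact permutation within groups, p = 0.00521, adjusted 0.0156). Without sham 3 and 4, the libraries farthest from the median of Myh7, r over the other 6 was 0.994, 0.995 and 0.993. Each lane held at most 4 libraries, too few for a correlation within a lane.

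The type IIa and IIx myosins did not keep this order over all 8 libraries. Myh2 ranked the RYGB libraries as Myh7 did, and in the sham group only sham 3 stood out of place for it. Myh2 correlated with Myh7 at r = 0.712 (exact permutation p = 0.0547, adjusted 0.122) and rho = 0.857 (exact permutation p = 0.0107, adjusted 0.0193), but on deviations from the group means r was 0.0422 (exact permutation within groups, p = 0.948, adjusted 0.948). For Myh1, r was 0.391 (exact permutation p = 0.332, adjusted 0.427, rho 0.643 with p = 0.0962, adjusted 0.144) over all libraries and -0.664 on deviations (exact permutation within groups, p = 0.227, adjusted 0.512). Sham 3 shows the difference in values, since it had the lowest Myh7 and the highest Myh1 and Myh2 of the sham group. Myh4 gave r = -0.667 (exact permutation p = 0.0677, adjusted 0.122, rho -0.857 with p = 0.0107, adjusted 0.0193) and -0.11 on deviations. Without sham 3 and 4, r over both groups was 0.967 for Myh2, 0.851 for Myh1 and -0.961 for Myh4, so these relations depended on those libraries. For the fast genes Tnni2 (r = -0.553), Actn3 (0.345) and Atp2a1 (-0.261) the adjusted exact permutation p values were 0.233, 0.462 and 0.542.

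**Figure D4:**
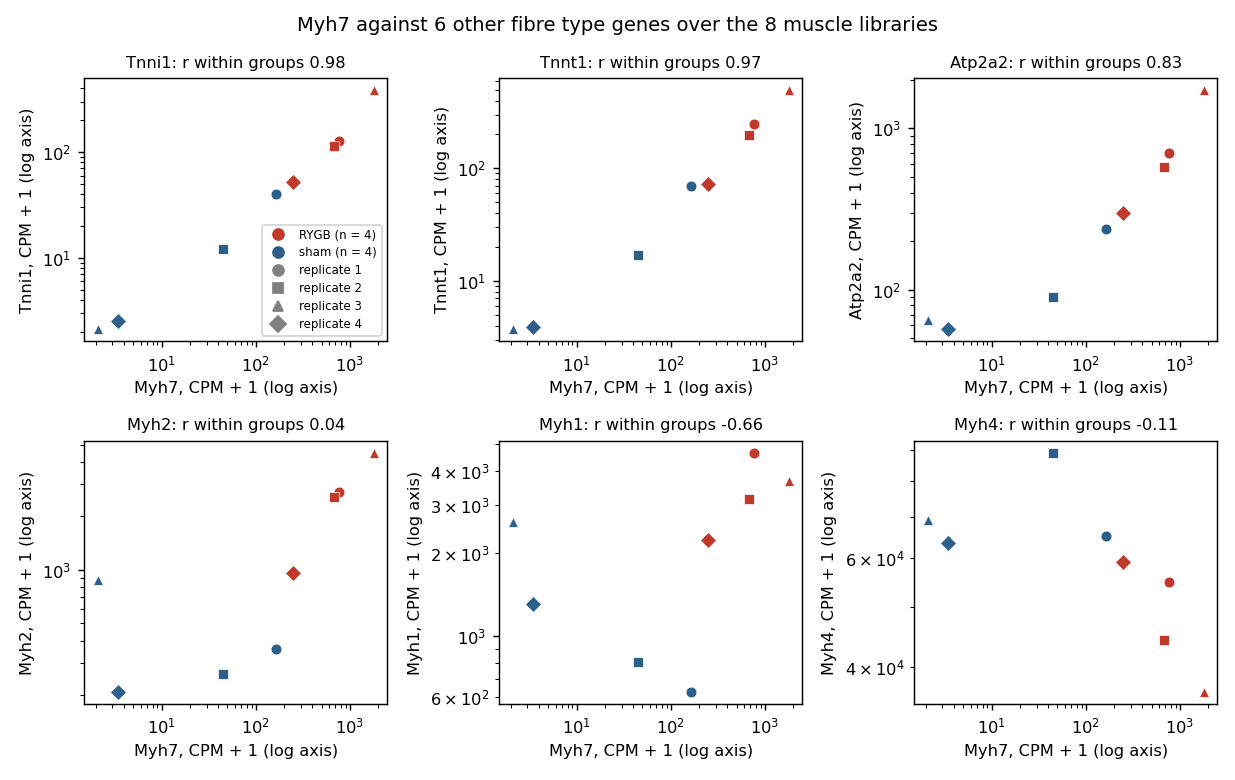
CPM + 1 of 6 fibre type genes against that of Myh7 in the 8 muscle libraries (both axes log), with RYGB in red and sham in blue, the shape giving the replicate number, and r on deviations from the group means above each panel. Tnni1, Tnnt1 and Atp2a2 follow a line with Myh7 over both groups, while sham 3 and 4 leave the line for Myh2, Myh1 and Myh4.

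Outside the listed genes, those with at least 10 CPM whose deviations from the group means were most like those of Myh7 over the 8 libraries were Tbc1d4 (r = 0.939), Tpt1 (0.879) and Lifr (0.855). Without taking out the group means, r was 0.979 for Tbc1d4 and 0.865 for Tpt1. For Lifr it was only 0.188, with a log2 fold change of -0.1. Tbc1d4, a regulator of glucose transporter traffic, measured 110.2, 95.8, 139 and 105.5 CPM in RYGB 1 to 4 and 90.6, 76.4, 49.8 and 53 CPM in sham 1 to 4 (log2 fold change 0.76, adjusted p value 0.135). Those most like Myh2 were LOC100046151 (0.991, and 0.992 without taking out the group means), Tshz2 (0.987 and 0.629) and Acvrl1 (0.987 and 0.935). They were picked from all other genes for their likeness, so these correlations are a description and carry no p.

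Other genes of the slow programme were read from a list of 11 partners of the slow sarcomere. None was called, all 11 were higher in the RYGB group, each with an unadjusted p value under 0.05 (10% of all genes), and in 10 every RYGB library lay above the sham libraries (4.77% of all genes). Their median log2 fold change was 2.31. Myl2, the slow regulatory light chain, measured 279.8, 262.5, 628.4 and 100.3 CPM in RYGB 1 to 4 and 78.6, 17.4, 35.4 and 8.4 CPM in sham 1 to 4 (log2 fold change 3.30, SE 0.67, adjusted p value 0.112). Myoz2, a Z-disc protein gene that binds calcineurin, had the lowest p of the list, at 150.2 ± 79.4 against 22.38 ± 9.74 CPM (log2 fold change 2.63, SE 0.42, adjusted p value 0.0875). Mybpc1, the slow myosin binding protein C, was the partner whose groups overlapped, with 2481.1 CPM in sham 3 against 963.5 CPM in RYGB 4 (adjusted p value 0.313).

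Partners of the fast sarcomere pointed the other way by smaller amounts. Of the 10, none was called, 9 were lower in the RYGB group, 5 with an unadjusted p value under 0.05 (4.56% of all genes were lower at that p), and 5 had every RYGB library below every sham library (2.62% of all genes). Their median log2 fold change was -0.38. Myl1, the fast essential light chain, averaged 3527 ± 539 against 5350 ± 265 CPM (log2 fold change -0.61, SE 0.14, adjusted p value 0.116), with no overlap. Tpm1, a tropomyosin gene, averaged 14259 ± 2596 against 21142 ± 2604 CPM (log2 fold change -0.58, adjusted p value 0.235), again with no overlap. Tnnt3, the fast troponin T, averaged 16631 ± 2521 against 19924 ± 2392 CPM (log2 fold change -0.27, adjusted p value 0.588), and its groups overlapped.

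Lists for the metabolism of the fibre types were read next. All 10 oxidative fibre genes were higher in the RYGB group, as were 7531 of the 11966 genes tested, 9 with an unadjusted p value under 0.05 (10% of all genes) and 4 without overlap (4.77%), with a median log2 fold change of 0.95, and none was called. Mb, the oxygen carrier myoglobin, averaged 1955 ± 801 against 586.8 ± 267 CPM, and its groups overlapped (log2 fold change 1.73, SE 0.40, adjusted p value 0.116). Ldhb, the lactate dehydrogenase subunit of oxidative tissue, averaged 161.6 ± 74.7 against 27.65 ± 12.9 CPM without overlap (log2 fold change 2.49, SE 0.41, adjusted p value 0.091). Citrate synthase, Cs, an enzyme of the citric acid cycle, averaged 854.6 ± 81.5 against 802.6 ± 50.3 CPM (log2 fold change 0.09, adjusted p value 0.737).

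Among the 10 glycolytic enzymes 9 were lower in the RYGB group, 1 of them with an unadjusted p value under 0.05, near the share of all genes (4.56%), none had its RYGB libraries all below the sham libraries (2.62% of all genes), none was called, and the median log2 fold change was -0.22. Pkm, a pyruvate kinase gene, had the lowest p of these (1446 ± 245 against 1921 ± 216 CPM, log2 fold change -0.42, adjusted p value 0.242). Aldoa, an aldolase, averaged 10526 ± 1371 against 10080 ± 898 CPM, and Pygm, the muscle glycogen phosphorylase, 6526 ± 968 against 8038 ± 937 CPM. Gapdh was at only 10 to 22 CPM, and 82.5% of its 50-base fragments also occur in other genes, so its value is not a level of the enzyme's transcript. The counts and the median above include it, among the lower genes.

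**Figure D5:**
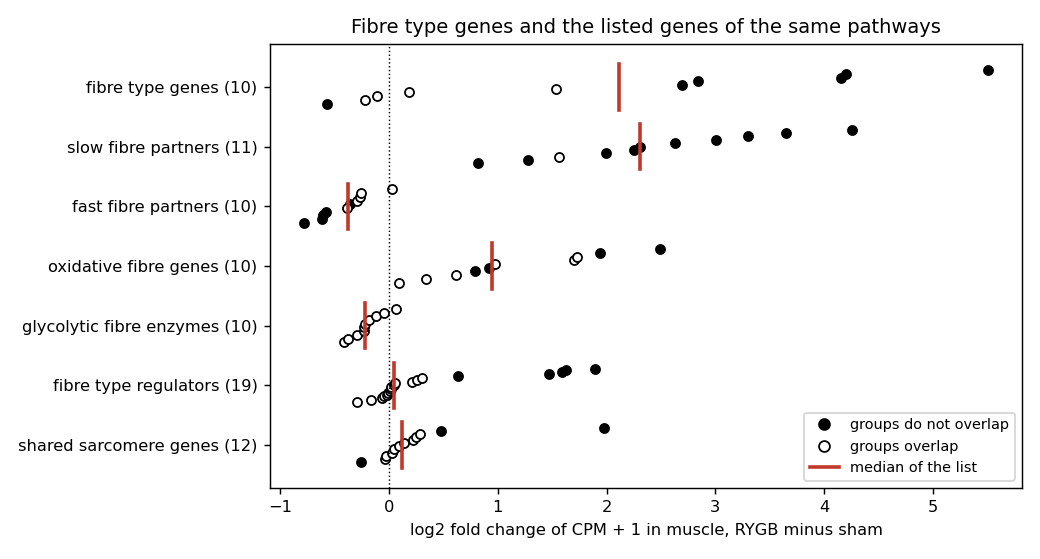
Log2 fold change in muscle of each gene (points) in the fibre type genes and 6 further lists, filled where the RYGB and sham libraries do not overlap, with the median of each list in red. The slow partners (median 2.31) and oxidative genes (0.95) lie above 0 and the fast partners (-0.38) and glycolytic enzymes (-0.22) mostly below, and no gene was called.

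Of 19 listed regulators of fibre type, none was called, 13 were higher and 6 lower, and the median log2 fold change was 0.04. Esrrb, an oestrogen-related receptor, had the lowest p, with 11.2, 10.7, 19 and 5.6 CPM in RYGB 1 to 4 and 2.9, 1.5, 3.1 and 1.5 CPM in sham 1 to 4 (log2 fold change 1.89, SE 0.31, adjusted p value 0.091). It was 1 of 5 regulators with every RYGB library above the sham libraries, against 4.77% of all genes. Mef2c, a muscle transcription factor, averaged 946 ± 35.1 against 959.3 ± 58.3 CPM, and Tead1, which binds the MCAT element, 333.4 ± 56.8 against 343 ± 48.9 CPM. Among 12 sarcomere genes used by all fibre types the median log2 fold change was 0.12. Acta1 and the giant spring protein gene Ttn (24366 ± 7835 against 22453 ± 5240 CPM) overlapped between the groups, and Actn2, the alpha-actinin that is richer in slow and oxidative fibres, did not (1326 ± 624 against 328 ± 135 CPM, log2 fold change 1.98, SE 0.33, adjusted p value 0.0935). Of 8 listed genes of development and denervation none was called, and the median log2 fold change was 0.47. In the RYGB group 7 were higher, 3 with an unadjusted p value under 0.05 (10% of all genes). None had every RYGB library above the sham libraries. Chrnd, a subunit of the acetylcholine receptor, had the lowest p (3.225 ± 1.21 against 1.525 ± 0.806 CPM, adjusted p value 0.253), Chrna1 averaged 24.9 ± 1.07 against 19.2 ± 8.46 CPM, and Musk, the receptor kinase of the nerve-muscle junction, 38.2 ± 8.75 against 47.55 ± 11.3 CPM.

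No marker of other cells in the sample was called. Of all genes, 10% were higher with an unadjusted p value under 0.05 and 4.77% had every RYGB library above the sham libraries. All 5 smooth muscle markers were higher in the RYGB group, 4 with an unadjusted p value under 0.05 and 2 without overlap (median log2 fold change 0.70, summed level 134.8 to 221.5 against 94.3 to 125.9 CPM). Myh11, the smooth muscle heavy chain, led them with 64.58 ± 12 against 38.9 ± 3.91 CPM (adjusted p value 0.102), and Acta2 averaged 67.45 ± 15.2 against 40.8 ± 7.2 CPM. All 5 endothelial markers were higher, 4 with an unadjusted p value under 0.05 (median 0.39, summed level 285.3 to 490.5 against 250.9 to 344.7 CPM), with Tie1 at 38.2 ± 7.8 against 26.18 ± 4.59 CPM (adjusted p value 0.195), and Cdh5 and Kdr the most abundant. Of 7 fibroblast and tendon markers 6 were higher, 3 with an unadjusted p value under 0.05 (median 0.25, summed level 628.1 to 1122.2 against 510.3 to 880.7 CPM). Among these Thbs4 did not overlap (148.8 ± 53.6 against 68.45 ± 37.2 CPM, adjusted p value 0.195), but only just, with 107 CPM in RYGB 4 and 106.6 CPM in sham 4. Fmod, of the tendon matrix, was at 37.2 and 29.5 CPM in sham 2 and 3 and at 149.6 CPM or more in the other 6 libraries. Dcn averaged 397 ± 75.8 against 333.2 ± 71.1 CPM. The part of these cells in the differences of the fibre type genes was not tested.

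Fat, blood, nerve sheath and macrophage markers overlapped between the groups throughout. The 6 adipocyte markers summed to 50.7 to 215.2 CPM in the RYGB group and 28.3 to 611.8 CPM in the sham group, the highest being sham 3, where Adipoq was at 119 CPM and Lep at 99.8 CPM. Cfd, the adipocyte gene with the highest mean, was at 40.82 ± 38.5 against 74.1 ± 104 CPM. The 4 Schwann cell markers used summed to 37.7 to 96.1 and 27.4 to 77.3 CPM, with the myelin genes Pmp22 at 40.08 ± 13.7 against 29.62 ± 11.3 CPM and Mbp at 25.25 ± 11.2 against 17.15 ± 7.79 CPM. The 4 macrophage markers listed summed to 64.5 to 115.3 and 38.1 to 120.2 CPM. Of these Lyz2 averaged 64.4 ± 15.8 against 54.38 ± 23.7 CPM, Csf1r 17.68 ± 5.07 against 14.38 ± 5.68 CPM and Cd14 1.775 ± 0.66 against 1.25 ± 0.332 CPM. The erythroid genes listed, the globin gene Hba-a1 under 2 Ensembl IDs and Alas2, summed to 7.5 to 63 and 8.1 to 82.4 CPM. Over these 4 lists the lowest adjusted p value was 0.537, for Cd14.

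In the other 5 tissues only Atp2a2, Tnnt1 and Tnni2 were listed, the last in white adipose tissue alone. Each table was normalised on its own, so levels are not compared between tissues by a test. Atp2a2 ranged from 129 CPM, in a sham jejunum library, to 385.4 CPM, in an RYGB jejunum library. In white adipose tissue it measured 220.9, 237.3, 190.8 and 199.8 CPM in RYGB 1 to 4 and 253.2, 258.3, 262.7 and 269.2 CPM in sham 1 to 4. The RYGB libraries were all below the sham libraries, as were 15% of the 13379 genes tested there. The log2 fold change of -0.30 (SE 0.10) had an adjusted p value of 0.0435 but was smaller than 1.5-fold, so it was not called, while 24.1% of the genes of that tissue were called, 9.23% as lower and the rest as higher. With single libraries left out the adjusted p value ran from 0.0387 to 0.122.

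Atp2a2 was not called elsewhere. Its means were 224.7 ± 36.2 and 195.9 ± 13.5 CPM in liver (adjusted p value 0.395, with 7.08% of genes called), 199.3 ± 24.9 (n = 3) and 191.1 ± 34.6 CPM in duodenum (0.86, with 0.00922% called), 269.3 ± 103 (n = 3) and 178.5 ± 41.8 CPM in jejunum (0.241, with 9.75% called) and 285.8 ± 47.8 and 233.2 ± 26.5 CPM (n = 5 each) in ileum (0.186, with 6.05% called). The log2 fold change in jejunum was 0.55, with an interval of -0.05 to 1.16, and in ileum 0.28, with an interval of 0 to 0.57. Tnnt1 was close to the listing limit in liver (0.6 to 1.8 CPM), duodenum (1.3 to 2.6 CPM), jejunum (1.4 to 3.6 CPM) and ileum (1.2 to 3.5 CPM), and Tnni2 measured 1.1 to 6.6 CPM in RYGB and 0.5 to 4.9 CPM in sham adipose tissue (adjusted p value 0.282). The other 7 fibre type genes were not listed in these tables, which list a gene only if it reached 1 CPM in a number of libraries no smaller than the smaller group.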

How the data were processed

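RNA was prepared with a TruSeq stranded mRNA kit. Per the labels, the authors counted reads with HTSeq on GRCm38; the aligner and the annotation are not given in the sources used here. The deposited values are CPM per gene, 1 table per tissue. The deposited jejunum and ileum columns were first entered as signal, because repeated gene lines raise their sums above the total that CPM allows, and 1 deposited sham liver column as a score, because of 12 malformed lines. With the repeats and malformed lines left out, all of them are CPM. Repeated lines were identical and 1 was kept per Ensembl ID (408 dropped in muscle). Depth is unknown, so no count model was run.

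Each tissue was fitted on its own with limma 3.58.1 (R 4.3.3), empirical Bayes with a trend, on log2(CPM + 1), for genes whose mean reached 1 CPM, with Benjamini-Hochberg adjustment over all of them. The procedure was tested on simulated data. Correlations used exact permutation tests in Python. The genes and lists were chosen with earlier results of these data known. Named from each list were its 2 most abundant genes and that with the lowest p, with the 3 genes outside the lists most like Myh7 and Myh2; Gapdh was named after its values were seen, and 1 cell type marker is not reported here. Transcript lengths, shared fragments and overlaps come from GENCODE, and promoters from RefSeq. Alternatives were another scaling, pseudocount or minimum, a lane term, a replicate block and each library left out.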

Additional observations from a re-analysis of the deposited data

Results flagged for a closer look

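Atp2a2 stood in opposite positions in muscle and in white adipose tissue: every RYGB library was above the sham libraries in muscle (log2 fold change 2.84) and below them in adipose tissue (-0.30), a gap of 3.14 on the log2 scale. The difference between the tissues was not tested, since their tables were normalised separately. Tnni2 in sham white adipose tissue measured 0.7, 4.9, 0.7 and 0.5 CPM in sham 1 to 4, and the gap of sham 2 to its neighbour was 0.909 of the range of log2(CPM + 1), above the limit of Dixon's test. Of 36 groups of 4 or 5 libraries examined, this was the only one past the limit, and chance gives about 1 in 20. In the RYGB group of the same tissue, replicate 2 was also the highest, at 6.6 CPM.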

How the results depend on the processing

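Depth is unknown, so the smallest level that the libraries could show cannot be given, and levels near 1 CPM in sham 3 and 4 enter the fold changes of Myh7, Tnni1 and Tnnt1. Genes called in muscle, 0 as reported, numbered 2 with median-ratio scaling, 3 at a mean of at least 10 CPM (no fibre type gene among either), and 0 with another pseudocount, no minimum, the lane term or the adjusted p value alone. With single libraries left out they ran from 0 to 210, and the fibre type genes called from 0 to 3. The replicate block gave 184 called genes, 3 of them fibre type genes (Atp2a2, Myh2 and Tnnt1), but same-numbered libraries did not deviate together (r from -0.271 to 0.222), so the numbers were not taken as pairs. With the lane term the 6 slow, type IIa and IIx genes kept their direction at an adjusted p value of 0.441 each. In muscle the direction of all 10 genes held in all 15 alternatives, and the log2 fold change of Myh7 ran from 3.01 to 6.66. The other minimums on CPM and the replicate block could not move a fold change, and the lane term gave the difference within lane 2. For genes with little difference the direction says little: Actn3 was at 0.0084 with the lane term, and Atp2a1 at -0.0183 without RYGB 3. Scaling moved the median of all genes from 0.05 to -0.002.

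Differences that were not called changed sign in the gut. Atp2a2 in duodenum was at -0.051 with scaling and from -0.0293 to 0.16 with single libraries left out, Tnnt1 in duodenum from -0.1688 to 0.0467, and Tnnt1 in jejunum from -0.1633 to 0.1496, the last also with the replicate block. Correlations with Myh7 on deviations from the group means turned to -0.664 for Myh1 and 0.052 for Atp2a1. Without the 2 libraries farthest from the median, sham 3 and 4, r was 0.851 for Myh1, 0.967 for Myh2, -0.961 for Myh4 and -0.884 for Atp2a1, each then with an adjusted exact permutation p value under 0.05, and -0.357 for Actn3. These permutations ran over the 6 libraries left without regard to group, so differences between the groups enter them. What lies behind these shifts was not tested.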

Other observations

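The fibre type genes and their slow partners did not rank the sham libraries in the same way. Sham 1 had the most Myh7 (163.1 CPM), Tnni1, Tnnt1 and Atp2a2 of its group and the least Myh1 (623.8 CPM). Sham 3 had the least Myh7 (1.1 CPM) and the most Myh1 (2604 CPM), Myh2 (876.7 CPM) and Mybpc1 (2481.1 CPM) of its group. Myl2 was at 35.4 CPM in sham 3 and 17.4 CPM in sham 2, although Myh7 was at 43.8 CPM in sham 2. In the RYGB group, RYGB 3 was the highest and RYGB 4 the lowest library for Myh7, Tnni1, Tnnt1, Atp2a2 and Myh2. The lane tags place sham 3 and 4 in one lane and RYGB 3 and 4 in another, and the part of lane in these orders was not tested.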
